A study of Mus musculus with 22 samples.

Results

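Ighv3-1, a variable segment of the mouse immunoglobulin heavy chain locus, was read in 3434 of 17178 distinct Igh sequences from kidney B cells. Its members are all sequences in 22 libraries whose first assigned V name was Ighv3-1 (written IGHV3-1 in the tables), and 3432 of them carried no second V name. The segment was chosen by its high share of sequences over all libraries, so that its overall level is a description and carries no test. With 19.99% of all sequences it stood second among 80 V names, behind Ighv3-8 with 3661 sequences and ahead of Ighv12-3 with 3216. The Ighv3-1 sequences formed 856 clonotypes, counted library by library, of 6754 in all. A clonotype here is a V segment, a J segment and a CDR3 nucleotide sequence within 1 library.

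A heavy chain variable region is assembled from a V, a D and a J segment, and the joints are trimmed and filled with bases that no segment encodes. The resulting CDR3, which runs across the D segment, is the most variable loop of the receptor, and B cells descended from 1 rearrangement share it. Point mutations in the V segment and a switch of the constant region away from Ighm and Ighd, the isotypes of a naive B cell, are marks of antigen-driven responses.

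The mice were wild-type C57BL/6 females aged 8 to 10 weeks. Their bladders were inoculated 2 times with uropathogenic Escherichia coli (UPEC, 5 mice) or with phosphate-buffered saline (PBS, 6 mice), and kidneys were taken on day 56. An antibody to CD45 in the circulation separated intravascular B cells (IN), which it labelled, from extravascular B cells (EX), which it did not. Both fractions of every mouse were sequenced, so that EX and IN libraries are paired by mouse. The tables hold Igh sequences and no other transcript, so the sorted identity could not be checked against marker genes.

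Germline Ighv3-1 lies on the minus strand of chromosome 12 at chr12:113964388-113964818 (GRCm38, GENCODE vM21), with exon 1 at chr12:113964776-113964818 and exon 2, which encodes the V region, at chr12:113964388-113964694. Its neighbours are Ighv4-1 and Ighv11-1. The 294-base V segment (RefSeq, GRCm38, chr12:113964390-113964683, minus strand) is printed below with CDR1 and CDR2 in capitals, because every Ighv3-1 sequence was compared with it. Its last 9 bases, tgtgcaaga, open the CDR3 with the conserved cysteine codon.
Germline Ighv3-1: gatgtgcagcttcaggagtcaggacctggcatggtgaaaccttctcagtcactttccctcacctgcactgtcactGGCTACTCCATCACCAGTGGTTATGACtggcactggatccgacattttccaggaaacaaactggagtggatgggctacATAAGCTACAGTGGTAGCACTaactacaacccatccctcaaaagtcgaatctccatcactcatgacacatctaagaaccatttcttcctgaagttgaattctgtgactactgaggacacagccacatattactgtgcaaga
CDR1 was as in germline in 98.5% of Ighv3-1 sequences and CDR2 in 94.8%.

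PBS EX libraries held 750 to 2134 sequences and PBS IN libraries 344 to 611. UPEC EX libraries held 244 to 1102 and UPEC IN libraries 347 to 938. In all, 28360 of 123192 reads belonged to Ighv3-1, which is 23.0%. PBS IN mouse 6 stood apart, since 1 Ighv3-1 clonotype made up 37.3% of its sequences, and the main contrasts that include it are also given without it. In these bulk libraries more cells of a clone and more Igh RNA per cell cannot be told apart.

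Ighv3-1 was among the leading V segments of most libraries and varied widely between mice. It was the most used segment in 5 of 22 libraries and among the first 3 in 19. In PBS EX the share of sequences was 3.6% at the lowest (mouse 5), 19.1% at the median and 34.8% at the highest (mouse 6), with a mean of 21.0% ± 11.3 (SD, n = 6). In PBS IN it was 17.1%, 21.7%, 23.5%, 15.1% and 19.2% in mice 1 to 5, and 47.8% in mouse 6. EX was higher than IN in 3 of 6 PBS mice. The mean difference of -3.01 percentage points was smaller than its spread between mice (SD 9.68; exact two-sided Wilcoxon signed-rank test over mice, p = 0.56, adjusted p = 0.79 over 8 share tests). Without mouse 6 it was -1.01 points, and leaving out any 1 mouse gave -5.35 (mouse 3) to -0.50 (mouse 5). It was -8.48 points weighted by reads, with EX higher in 1 of 6 mice (exact p = 0.16), and -6.45 points with sequences of at least 3 reads (exact p = 0.44). By counting error alone, the 95% Wilson interval of the lowest share, in PBS EX mouse 5, was 2.49% to 5.19%.

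After UPEC the EX shares were 5.74%, 9.48%, 8.80%, 30.4% and 6.67% in mice 1 to 5. The IN shares of the same mice were 19.5%, 23.6%, 17.8%, 10.4% and 21.0%. EX was below IN in mice 1, 2, 3 and 5 and above it in mouse 4. The mean difference was -6.24 points (SD 14.8; exact Wilcoxon signed-rank test, p = 0.62), and 5 pairs cannot give a p below 0.0625. Without mouse 4 it was -12.8 points, lower in EX in 4 of 4 mice. Between treatments, EX averaged 12.2% ± 10.3 (SD, n = 5) with UPEC and 21.0% with PBS, with overlapping values (exact Mann-Whitney U test, p = 0.25, adjusted p = 0.49). This EX difference was -8.82 points, and leaving out any 1 mouse gave -13.4 (UPEC EX mouse 4) to -6.08 (PBS EX mouse 6). Without PBS EX mouse 5 it was -12.3 points (exact Mann-Whitney U test, p = 0.056). IN averaged 18.5% ± 4.97 (SD, n = 5) with UPEC and 24.1% ± 12 (SD, n = 6) with PBS (exact Mann-Whitney U test, p = 0.79). Without PBS IN mouse 6 this difference shrank from -5.60 to -0.85 points. The EX minus IN gap was 3.23 points lower in UPEC than in PBS mice, and this change was not distinguishable from 0 (exact permutation test, p = 0.68). Without PBS mouse 6 the change was -5.23 points (exact permutation test, p = 0.56), and leaving out any 1 mouse gave -9.78 (UPEC mouse 4) to -0.89 (PBS mouse 3). Its direction turned when weighted by reads (0.224) and with joined clonotypes (0.438).

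In a limma fit across all V segments with at least 10 sequences in 3 libraries, Ighv3-1 passed in no comparison of sequence shares. Its log2 fold change in PBS EX against IN was -0.37 ± 0.59 (SE; limma, adjusted p = 0.58), where 6 of 17 segments, 35.3%, passed. That count fell to 0 when any one of mice 1 to 5 was left out. The median log2 fold change over the 17 was -1.20, and with each library centred on its median segment the Ighv3-1 value turned to 0.77 (limma, adjusted p = 0.54). The uncentred log2 fold change was -0.83 ± 0.92 in UPEC EX against IN, -0.79 ± 0.84 in EX with UPEC against PBS and -0.32 ± 0.34 in IN with UPEC against PBS. Centred, these were -0.42, -1.55 and -0.41. In each of these last 3 comparisons 0% of segments passed limma at an adjusted p below 0.05, and 3, 1 and 1 segments had an unadjusted p below 0.05.

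**Figure D1:**
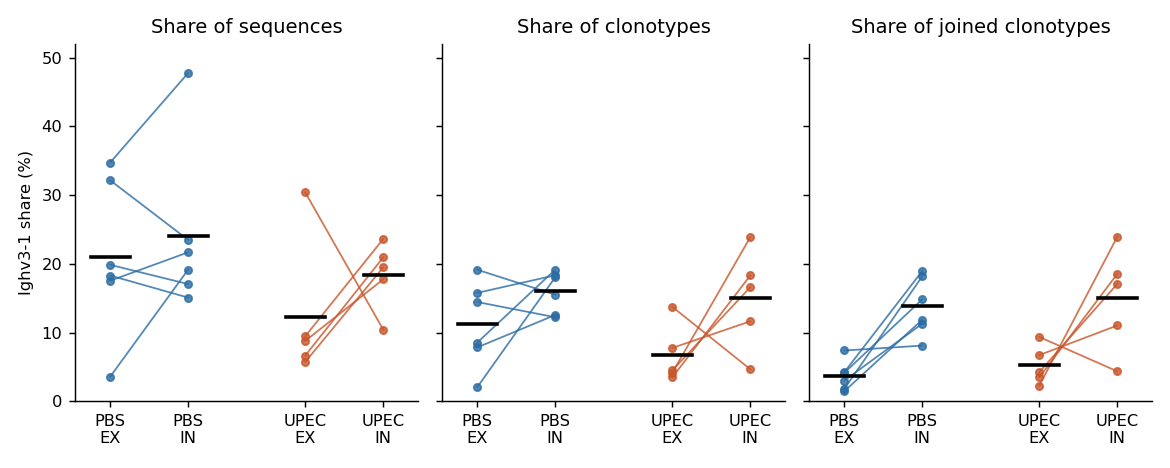
Ighv3-1 share in percent of sequences (left), clonotypes (middle) and joined clonotypes (right), with 1 line per mouse from EX to IN and black bars for group means. By sequences PBS EX spans 3.6% to 34.8%, and by joined clonotypes every PBS mouse lies lower in EX than in IN.

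Counted by clonotype, Ighv3-1 took 12.7% of the total. The PBS EX shares of clonotypes were 14.5%, 8.56%, 19.2%, 7.86%, 2.07% and 15.8% in mice 1 to 6, against 12.2%, 19.2%, 15.5%, 12.6%, 18.1% and 18.4% in PBS IN. UPEC EX had 3.48%, 4.17%, 7.78%, 13.8% and 4.51%, against 18.3%, 23.9%, 11.7%, 4.68% and 16.6% in UPEC IN. IN was above EX in 4 of 6 PBS mice and in 4 of 5 UPEC mice. Neither contrast passed the exact Wilcoxon signed-rank test (PBS -4.68 points, p = 0.22; UPEC -8.29 points, p = 0.19). Leaving out any 1 UPEC mouse gave a UPEC difference of -12.6 (mouse 4) to -5.43 points (mouse 2). The PBS difference was -5.10 points without mouse 6, and leaving out any 1 mouse gave -6.34 (mouse 3) to -2.41 (mouse 5). With clonotypes of at least 3 reads only, the PBS difference was -10.0 points (exact p = 0.031).

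Many extravascular clonotypes differed from a larger one by a single CDR3 base. Clonotypes of the same library, V, J and length whose CDR3s lay 1 nt from a clonotype with more sequences were therefore joined, a step chosen after seeing the data, and 856 Ighv3-1 clonotypes became 588 of 5559 joined ones. PBS EX then held 3, 10, 8, 3, 3 and 16 joined Ighv3-1 clonotypes in mice 1 to 6, and PBS IN held 42, 64, 48, 37, 47 and 19. As a share of all joined clonotypes these were 3.03%, 4.26%, 4.17%, 1.48%, 1.83% and 7.41% in EX and 11.3%, 19.0%, 14.9%, 11.9%, 18.2% and 8.12% in IN. The groups did not overlap, and EX was lower in 6 of 6 mice, by 10.2 points on average (exact Wilcoxon signed-rank test, p = 0.031, the smallest 6 pairs can give; adjusted p = 0.12 over 4 joined tests). Without mouse 6 the difference was -12.1 points, lower in 5 of 5 mice. In limma on joined shares the log2 fold change was -1.98 ± 0.46 (SE, adjusted p = 0.0011), where 5 of 11 segments, 45.5%, passed and the median log2 fold change over the 11 was 0.15. Without mouse 6 it was -2.35 ± 0.51 (SE; limma, adjusted p = 0.00021). PBS EX libraries also held more sequences than PBS IN libraries, and the part of depth in this difference was not tested.

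UPEC EX held 7, 3, 12, 30 and 10 joined Ighv3-1 clonotypes in mice 1 to 5, and UPEC IN 57, 70, 38, 15 and 46. Mouse 4 was again the exception to a lower extravascular number. The joined share was 5.24% in EX and 15.0% in IN (exact Wilcoxon signed-rank test, p = 0.19; limma log2 fold change -1.44 ± 0.77, adjusted p = 0.25). Joined shares did not pass between UPEC and PBS in EX (exact Mann-Whitney U test, p = 0.33) or in IN (p = 0.93).

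A few large clonotypes, each found in 1 mouse, held most Ighv3-1 sequences in PBS EX. Of 23 Ighv3-1 clonotypes with at least 20 sequences, 16 were in PBS EX, 5 in UPEC EX, 1 in PBS IN and 1 in UPEC IN. Over all V segments, Ighv3-1 included, these groups held 67, 34, 2 and 9 such clonotypes. The 23 of Ighv3-1 ran from 22 to 374 sequences, and the next largest had 19. They made up 84.7% of Ighv3-1 sequences in PBS EX, 39.7% in UPEC EX, 31.2% in PBS IN and 7.64% in UPEC IN. The same percentage was not computed for the other V segments. With large clonotypes of every V segment left out, the mean Ighv3-1 share went from 21.0% to 10.8% in PBS EX. It went from 12.2% to 11.7% in UPEC EX, from 24.1% to 19.0% in PBS IN and from 18.5% to 18.6% in UPEC IN. The CDR3s of the 10 largest are shown because they are the largest part of this usage, with the bases assigned to D in capitals between the V-derived tgtgca and the J-derived end in tgg.
PBS EX mouse 1, Ighd1-1, Ighj4: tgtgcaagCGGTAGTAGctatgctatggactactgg
PBS EX mouse 3, Ighd6-3, Ighj2: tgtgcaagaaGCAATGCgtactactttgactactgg
PBS IN mouse 6, Ighd2-5, Ighj3: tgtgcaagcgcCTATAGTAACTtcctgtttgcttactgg
PBS EX mouse 4, Ighd3-2, Ighj4: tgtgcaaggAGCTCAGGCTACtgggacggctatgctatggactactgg
PBS EX mouse 6, Ighd4-1, Ighj2: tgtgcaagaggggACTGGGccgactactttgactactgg
PBS EX mouse 6, Ighd3-3, Ighj4: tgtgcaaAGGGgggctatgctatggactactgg
PBS EX mouse 6, Ighd2-2, Ighj4: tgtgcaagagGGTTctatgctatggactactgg
PBS EX mouse 6, Ighd2-4, Ighj2: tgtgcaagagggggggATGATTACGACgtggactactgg
UPEC EX mouse 2, Ighd2-3, Ighj3: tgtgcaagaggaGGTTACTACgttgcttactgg
PBS EX mouse 2, Ighd2-10, Ighj2: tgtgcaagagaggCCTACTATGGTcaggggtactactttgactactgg

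The clone of PBS EX mouse 1 had 374 sequences and 4234 reads, which was 88.2% of the Ighv3-1 sequences of its library, and no inserted base on either side of its D bases. That of PBS EX mouse 3 had 373 sequences, or 67.8%. In PBS EX mouse 4 a single clonotype of 142 sequences held 87.1%. PBS EX mice 2 and 6 instead had 5 large clonotypes each, the largest with 55 and 83 sequences. In UPEC EX mouse 1 no clonotype exceeded 3 sequences. PBS IN mouse 6 carried the largest intravascular clone, with 228 sequences and 78.1% of its Ighv3-1 sequences, whereas the largest in PBS IN mice 1 to 5 had 9, 5, 19, 6 and 4. None of the 23 large clonotypes was found in the other compartment of its mouse, and 14 of 89 large clonotypes of other V segments, 15.7%, were found there, a difference that was not tested.

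Leaving the clonotypes of at least 20 sequences out of every V segment, Ighv3-1 took 1.22% to 19.0% of PBS EX sequences (median 10.4%) and 15.1% to 23.5% of PBS IN sequences (median 18.6%). PBS IN mouse 6 then stood at 16.7%, within the range of the other PBS IN libraries.

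**Figure D2:**
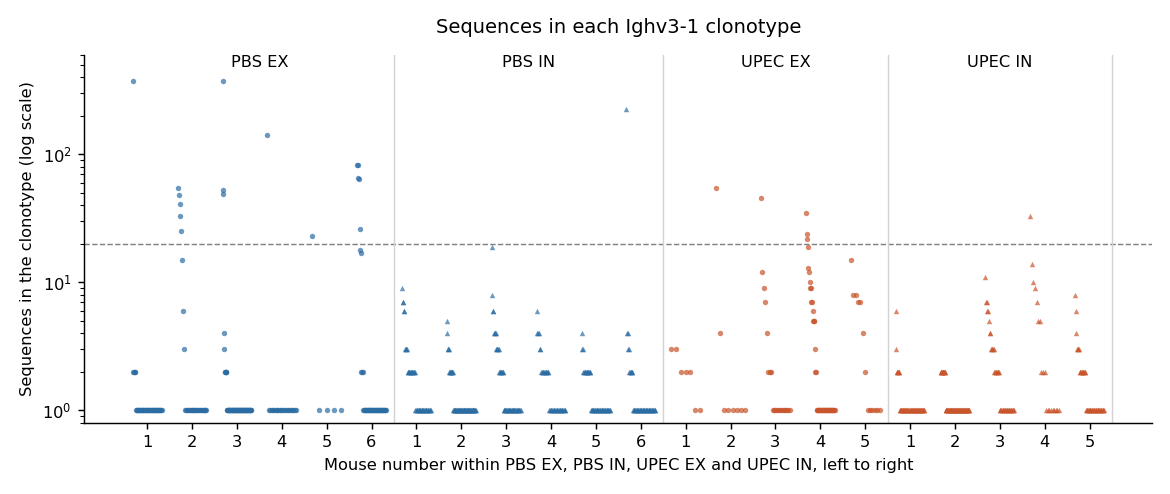
Number of sequences in each Ighv3-1 clonotype on a log scale, by library, with circles for EX, triangles for IN and a dashed line at 20 sequences. In PBS EX each library has 1 to 5 points above the line, and in PBS IN only mouse 6 has one.

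Ighv3-1 clonotypes of PBS mice held more sequences in EX than in IN. Sequences per clonotype were 9.02, 7.81, 8.09, 7.41, 5.40 and 8.31 in PBS EX mice 1 to 6 and 2.06, 1.34, 2.25, 1.72, 1.40 and 5.96 in PBS IN. Each PBS mouse was higher in EX (mean difference 5.22, SD 1.73, n = 6; exact Wilcoxon signed-rank test, p = 0.031, adjusted p = 0.27 over 17 features). Without mouse 6 the difference was 5.79, and it was higher in EX in 5 of 5 mice. Other V segments of PBS mice had 3.74 in EX and 1.34 in IN. PBS EX libraries held more sequences than PBS IN libraries and, on average, than UPEC EX libraries, and the part of depth in sequences per clonotype was not tested. Against the other V segments of the same EX library, Ighv3-1 had 6.34 sequences per clonotype and the others 3.24, and in IN the means were 2.40 and 1.39. These last values are descriptions with no test, since the segment was chosen by its number of sequences. In UPEC mice the EX and IN means were 4.75 and 2.33 (exact p = 0.12). Without PBS IN mouse 6 the IN means were 2.05 and 1.38. Without joining, EX clonotypes held 7.67 sequences on average with PBS and 4.75 with UPEC (exact Mann-Whitney U test, p = 0.052, adjusted p = 0.47). Joined clonotypes of EX held 53.9 sequences on average with PBS and 9.0 with UPEC (exact Mann-Whitney U test, p = 0.0087, adjusted p = 0.15). By library the joined values ran from 9.0 to 141 (mouse 1) in PBS EX and from 2.0 to 21.7 (mouse 2) in UPEC EX. Those of other V segments ran from 3.6 to 17.8 (mouse 1) in PBS EX and from 1.2 to 6.1 (mouse 3) in UPEC EX. Whether the contrast of treatments was particular to Ighv3-1 was not tested.

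Large size was also seen in other segments. In PBS EX the pooled number of sequences per joined clonotype was 42.2 for Ighv3-1, 30.9 for its relative Ighv3-8, 111 for Ighv3-3 and 50.1 for Ighv12-3, a segment known from B-1 cells. The value of Ighv3-3 rested on 5 joined clonotypes and was 22.7 without mouse 1. In PBS IN the same numbers were 2.84, 2.18, 2.38 and 2.02, and without mouse 6 they were 1.84, 1.99, 2.40 and 2.04. Another relative, Ighv3-6, had 3.29 in PBS EX and 1.06 in PBS IN.

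Within a large clonotype 1 sequence dominated and matched germline. In each of the 23 the sequence with most reads had 0 mismatches in the V segment, over 265 to 266 aligned bases, and held 50.3% to 74.5% of the reads of its clonotype (median 62.9%). The median of the remaining sequences in a clonotype was 2 to 3 reads. In every one of the 23 the median V segment had 1 mismatch.

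Over all Ighv3-1 sequences that could be placed, 40.6% of 3323 had 0 mismatches to germline, 53.6% had 1 and 5.87% had 2 or more. Sequences with 0 mismatches held 73.6% of reads. Germline copies made up 27.6% of sequences in PBS EX and 57.4% in PBS IN, and 39.4% and 70.2% in UPEC EX and IN, and sequences with 1 mismatch were 65.2% and 37.4% in PBS, and 57.5% and 25.7% with UPEC. Without mouse 6 the PBS IN shares were 76.3% with 0 mismatches and 18.5% with 1. By library the share with 0 ran from 23.2% to 30.8% in PBS EX and from 59.0% to 91.7% in PBS IN mice 1 to 5, and it was 30.7% in mouse 6. Averaged per clonotype, V mismatches as percent of aligned bases were 0.0627% in PBS EX and 0.0597% in PBS IN, a difference of 0.0029 points (SD 0.0752; exact Wilcoxon signed-rank test, p = 1.0). With joined clonotypes they were 0.201% and 0.0618% of aligned bases, higher in EX in 5 of 6 mice (exact p = 0.062). The 1553 distinct changes fell on 225 of 269 covered positions, and 19.7% of them were transitions (A to G, C to T and their reverse). Whether these changes arose in the cells or in amplification was not tested.

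**Figure D3:**
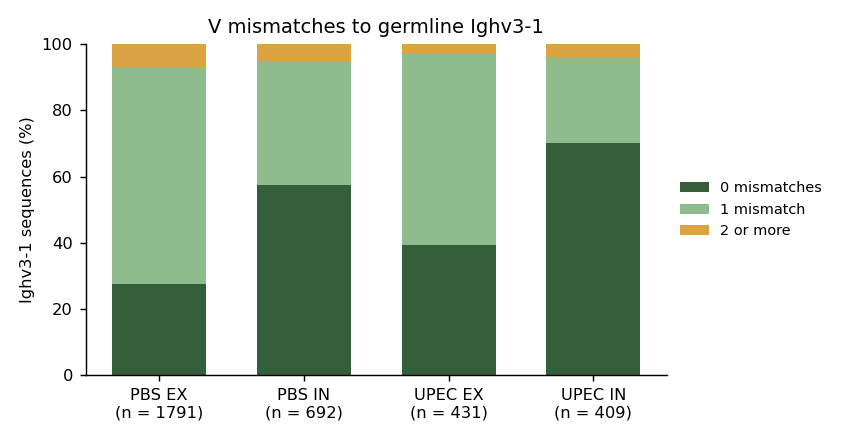
Ighv3-1 sequences in percent by number of V segment mismatches to germline, pooled over the mice of a group, with the number of placed sequences under each bar. The share with 0 mismatches is 27.6% in PBS EX and 57.4% in PBS IN, or 76.3% in PBS IN without mouse 6.

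A few clonotypes carried more changes in their leading sequence. The 6 with at least 2 sequences and at least 3 mismatches in the leading sequence are shown, D bases in capitals. Among clonotypes of at least 2 sequences, their leading sequences differ most from germline.
PBS EX mouse 6, Ighd1-1, Ighj2: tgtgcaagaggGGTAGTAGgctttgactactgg
PBS IN mouse 3, Ighd6-2, Ighj1: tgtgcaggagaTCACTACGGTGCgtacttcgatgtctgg
UPEC mouse 1, Ighd1-1, Ighj1: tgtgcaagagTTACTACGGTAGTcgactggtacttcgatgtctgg
UPEC EX mouse 1, Ighd1-1, Ighj1: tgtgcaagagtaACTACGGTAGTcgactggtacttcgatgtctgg
UPEC IN mouse 4, Ighd1-1, Ighj1: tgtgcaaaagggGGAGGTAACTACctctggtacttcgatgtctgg
UPEC EX mouse 5, Ighd1-1, Ighj1: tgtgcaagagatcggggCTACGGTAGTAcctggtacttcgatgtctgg
The first had 18 sequences and 191 reads with 3 to 4 mismatches, and only 1 of its sequences was in the Ighm field. The second had 19 sequences, all in the Ighm field, and 1 to 4 mismatches in the 18 that could be placed. The third was in both compartments of UPEC mouse 1, with 3 EX and 6 IN sequences, and had 3 to 9 mismatches in the 8 of these that could be placed. The fourth, of the same length, D and J, had 3 sequences with 4 to 9 mismatches. The clonotype of UPEC IN mouse 4 had 9 sequences and 78 reads, all in the Ighm field, and 1 to 6 mismatches in the 8 sequences that could be placed. That of UPEC EX mouse 5 had 2 sequences, of which 1 could be placed and had 8 mismatches. Of its 27 reads, 26 were in the Ighg3 field and 1 in the field taken as Ighg2a. In all, 50 Ighv3-1 sequences, or 1.5%, had 4 or more mismatches.

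CDR3s of Ighv3-1 were slightly shorter than those of other V segments in intravascular cells. Lengths are given in nucleotides with the conserved cysteine and tryptophan codons included. Mean length per clonotype in PBS IN was 41.2, 40.9, 41.7, 41.5, 41.6 and 40.5 in mice 1 to 6, and 42.3 ± 0.64 (SD, n = 6) for other V segments. In UPEC IN it was 40.7 ± 0.92 (SD, n = 5) against 42.3 ± 0.66. Over all mice IN Ighv3-1 CDR3s were 1.32 nt shorter (SD 1.01) than those of the other V segments, in 10 of 11 mice (exact Wilcoxon signed-rank test, p = 0.0020, adjusted p = 0.0094). With joined clonotypes the difference was -1.01 nt (exact p = 0.0029). Without PBS IN mouse 6 it was -1.20 nt (exact p = 0.0039). In UPEC mice alone it was -1.64 nt (exact p = 0.12).

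In EX the means were 36.6, 42.9, 39.8, 47.7, 44.4 and 39.8 nt in PBS mice 1 to 6 and 41.1, 39.4, 39.9, 41.5 and 47.3 nt in UPEC mice 1 to 5. The 374-sequence clone of PBS mouse 1 measured 36 nt and the 142-sequence clone of PBS mouse 4 measured 48 nt. EX Ighv3-1 did not differ from other V segments (0.14 nt, SD 3.39; exact p = 0.97), nor from PBS IN Ighv3-1 (0.68 nt, SD 3.84; exact p = 0.69), beyond the spread between mice.

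**Figure D4:**
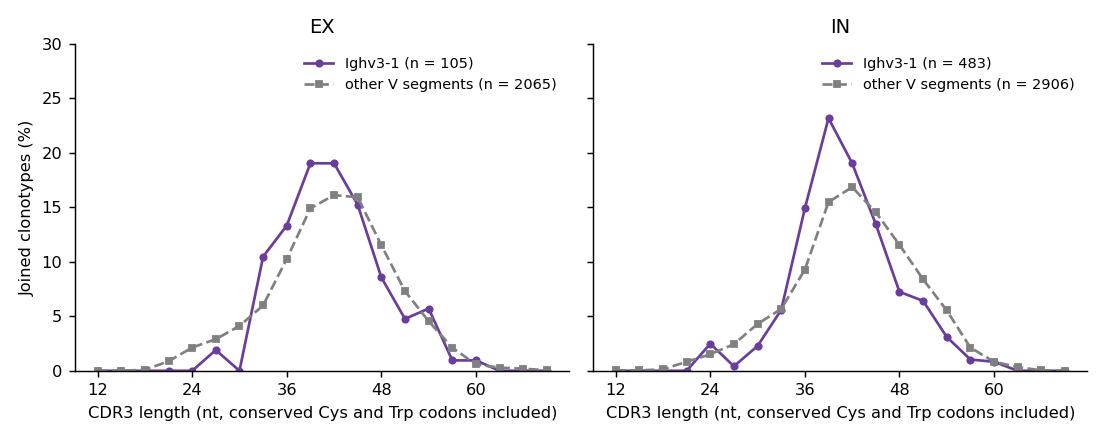
CDR3 length in nucleotides against percent of joined clonotypes, pooled over mice, for Ighv3-1 and other V segments in EX (left) and IN (right). In IN the Ighv3-1 curve peaks at 39 nt and that of the other V segments at 42 nt.

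Ighv3-1 paired with Ighj3 more often than other V segments did in IN. The Ighj3 share of Ighv3-1 clonotypes was 25%, 33.8%, 36.5%, 35.0%, 36.2% and 73.5% in PBS IN mice 1 to 6 and 31.6%, 20.0%, 23.3%, 42.1% and 21.7% in UPEC IN mice 1 to 5. The IN means were 34.4% for Ighv3-1 and 19.3% for the other V segments, higher in 10 of 11 mice (exact Wilcoxon signed-rank test, p = 0.0029, adjusted p = 0.0094). With joined clonotypes, where mouse 6 fell to 42.1%, the difference was 11.5 points (SD 8.28) and 11 of 11 mice were higher (exact p = 0.00098, adjusted p = 0.0078). Ighj2 was the counterpart, with 24.1% against 32.3%, lower in 9 of 11 mice (exact p = 0.0068, adjusted p = 0.018). Ighj1 and Ighj4 did not pass. Without PBS IN mouse 6 the Ighj3 difference was 10.8 points, higher in 9 of 10 mice (exact p = 0.0059), and the Ighj2 difference was -6.72 points (exact p = 0.014).

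In PBS EX the Ighj3 share was 2.13%, 15.6%, 0%, 4.55%, 20.0% and 29.2% in mice 1 to 6, lower than in IN in 6 of 6 mice by 28.1 points (SD 11; exact p = 0.031, adjusted p = 0.27). With joined clonotypes the difference was -11.8 points and 1 of 6 mice was higher (exact p = 0.16). Ighj4 made up 95.7% of clonotypes in PBS EX mouse 1 and 90.9% in mouse 4, but 33.3% of the 3 joined clonotypes of each. Ighj2 in PBS EX mouse 3 went from 83.8% to 62.5% on joining. The 23 large clonotypes used Ighj2 in 8 cases, Ighj4 in 7, Ighj3 in 6 and Ighj1 in 2.

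Ighd1-1 was the most frequent D partner, in 279 of 856 clonotypes (32.6%) and 195 of 588 joined ones (33.2%), followed by Ighd4-1 with 10.9% and Ighd2-4 with 10.0% of joined clonotypes. Among joined clonotypes Ighd1-1 was at 35.2% in EX and 32.7% in IN. By D family, no share differed between Ighv3-1 and the other V segments at an adjusted p below 0.05 in either compartment. It was also the D partner of 7 of the 23 large clonotypes.

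Inserted bases, which lie at the joints on either side of the D segment and are encoded by no segment, numbered 7.48 ± 2.51 per clonotype in PBS EX and 6.26 in PBS IN (SD, n = 6). EX was higher in 4 of 6 mice (exact Wilcoxon signed-rank test, p = 0.44). With joined clonotypes the means were 6.01 and 6.04, a difference of -0.024 (SD 1.90; exact p = 1.0). Against other V segments the difference was 1.39 in EX (SD 2.47; exact p = 0.12) and -0.11 in IN (SD 0.77; exact p = 0.76). Large clonotypes ranged from 0 to 14 inserted bases, with a median of 6. A clonotype, joined or not, counted as without inserted bases only if none of its sequences had any. Such clonotypes were 8.36% in PBS EX, led by 31.8% in mouse 1, and 4.74% in PBS IN. With joined clonotypes, as for insert size above, they were 2.71% in PBS EX, with 0% in mouse 1, and 4.67% in PBS IN (exact Wilcoxon signed-rank test, p = 0.44). So joined, EX Ighv3-1 had 1.48% and the other V segments 5.92%, higher for Ighv3-1 in 2 of 11 mice (exact p = 0.032, adjusted p = 0.17). Joined clonotypes with more sequences meet this rule less easily, and those of EX held 33.5 for Ighv3-1 and 5.34 for the others. That test therefore cannot separate the joints from clonotype size. Each joined clonotype was also scored by its sequence with most reads, a choice made after seeing the data. Clonotypes without inserted bases were then 9.31% in PBS EX and 4.67% in PBS IN (exact p = 0.62), and 1 of the 3 in EX mouse 1. Scored so, EX Ighv3-1 had 5.08% and the other V segments 7.40% (exact p = 0.37).

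Each sequence carries 9 read numbers by isotype, of which only the first is named in the tables, Igha. The others were taken in alphabetical order, an order that could not be checked, from Igha over Ighd, Ighe and Ighg1 to Ighg2a, and on to Ighm at the end. The isotype shares are percent of unique V-D-J regions with reads in a field, and a region may be in several. Of 3244 unique Ighv3-1 regions 95.2% were in the Ighm field and 5.55% in the Ighd field.

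Counted by region, Ighv3-1 was more often in the Ighm field than other V segments in IN. Its IN share was 92.4%, against 83.0% for the others, and higher in 11 of 11 mice (exact Wilcoxon signed-rank test, p = 0.00098, adjusted p = 0.0094). The Ighd field held 10.7% of IN Ighv3-1 regions and 17.6% of the others, lower in 10 of 11 mice (exact p = 0.0029, adjusted p = 0.0094). Without PBS IN mouse 6 the differences were 8.74 and -5.96 points (exact p = 0.0020 and 0.0059). Clonotypes with many regions weigh more in these shares, and Ighv3-1 had more sequences per clonotype than the others in IN. A count of the fields by clonotype was not made, so these tests cannot separate isotype from clonotype size. In EX neither field passed. The Ighm field was higher for Ighv3-1 in 9 of 11 mice (mean difference -1.25 points, SD 30.8; exact p = 0.15). The Ighd field was higher in 3 of 11 (4.05 points, SD 30.6; exact p = 0.64). In PBS EX mouse 5 the Ighm field held 7.41% of Ighv3-1 regions and 96.5% of the others. PBS EX mouse 5 was unlike the other PBS EX libraries, with 92.6% in the Ighd field, where mice 1, 2, 3, 4 and 6 had 0%, 1.24%, 1.18%, 0.65% and 3.39%. Its Ighv3-1 sequences were mostly 1 clonotype of 23 sequences, shown because 198 of its 200 reads were in the Ighd field.
PBS EX mouse 5, Ighd2-4, Ighj1: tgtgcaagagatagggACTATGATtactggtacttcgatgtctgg

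Igha, an isotype of mucosal responses, was not read with Ighv3-1 in any EX library. Other V segments of EX had 9.84% in PBS mouse 2, 17.1% in UPEC mouse 5 and 0% to 1.72% in the other libraries. At those shares the Ighv3-1 regions would number 23.8 in PBS mouse 2, 9.43 in UPEC mouse 5 and at most 2.63 in each of the others. The counts were 0 of 242 in PBS mouse 2 and 0 of 55 in UPEC mouse 5. Were each region independent, they would allow shares of up to 1.24% and 5.45%, below those of the other V segments. Regions of 1 clonotype are not independent, and either library held only 10 joined Ighv3-1 clonotypes. The numbers of regions therefore cannot show a lower Igha use of Ighv3-1 clones, which was not tested by clonotype. In the remaining libraries a lower Igha use was not detectable at this depth either. In IN, 3 Ighv3-1 sequences with 8 reads, all from UPEC mouse 5, were in the Igha field. In the field that is Ighg2a by the order used, 19 Ighv3-1 sequences were found, 14 of them in the clone of PBS EX mouse 6 with 3 to 4 mismatches shown above. The Ighg3 field held 6 Ighv3-1 sequences, 3 in PBS EX, 1 in PBS IN and 2 in UPEC EX. C57BL/6 mice carry Ighg2c in place of Ighg2a, and which gene this field names could not be checked. The Ighg1, Ighg2b and Ighg2c fields were empty for Ighv3-1.

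**Figure D5:**
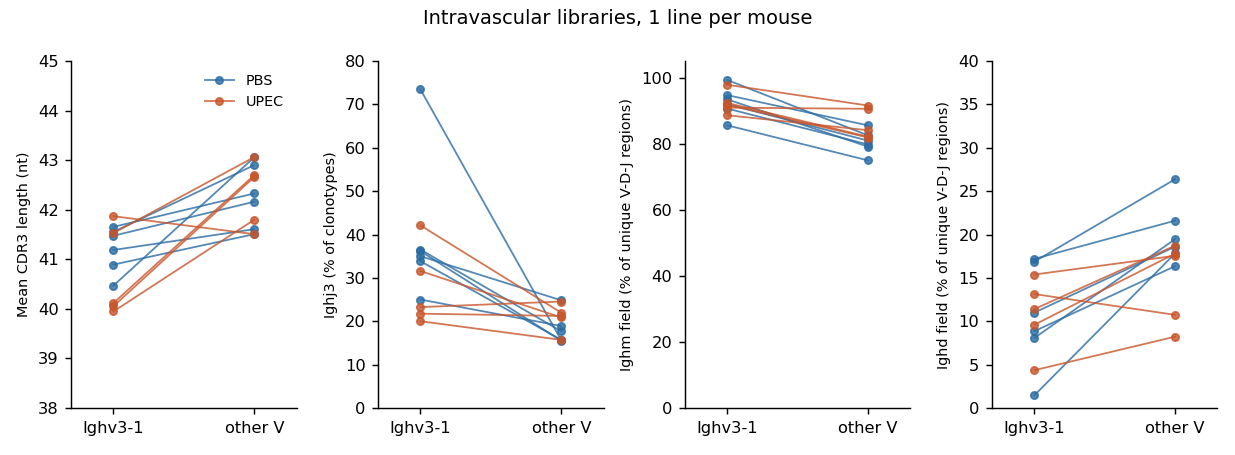
Ighv3-1 and other V segments of the same 11 IN libraries (1 line per mouse, PBS blue, UPEC orange), for mean CDR3 length in nt, Ighj3 in percent of clonotypes, and the Ighm and Ighd fields in percent of unique V-D-J regions. The Ighm share is higher for Ighv3-1 in every mouse and CDR3 length is lower in 10 of 11. The CDR3 axis does not start at 0.

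Of 850 distinct Ighv3-1 clonotypes 6, or 0.706%, were in more than 1 library, beside 1.48% of 5738 of the other V segments. Of the 6, 4 were in EX and IN of the same mouse, 3 in UPEC mouse 4 and 1 in UPEC mouse 1. No PBS mouse had an Ighv3-1 clonotype in both compartments, with 5 to 68 EX and 40 to 65 IN CDR3s compared, and clonotypes of other V segments were in both for 19 of 3249, or 0.585%, in these mice. In UPEC mice the shares were 1.22% of 329 and 2.02% of 2578. The difference between Ighv3-1 and the other V segments was not tested. The 3 of UPEC mouse 4 are shown as clonotypes found in both compartments, with 0 or 1 mismatch in their leading sequence.
UPEC mouse 4, Ighd3-3, Ighj3: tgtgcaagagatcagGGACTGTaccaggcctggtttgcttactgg
UPEC mouse 4, Ighd1-1, Ighj2: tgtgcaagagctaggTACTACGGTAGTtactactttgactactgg
UPEC mouse 4, Ighd2-1, Ighj2: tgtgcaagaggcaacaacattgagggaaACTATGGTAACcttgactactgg
They had 13, 6 and 9 sequences in EX and 1, 10 and 2 in IN. UPEC mouse 4 was also the UPEC mouse with the highest EX share and the lowest IN share.

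Between mice, 2 of 850 distinct clonotypes, or 0.235%, were shared, both of few sequences, beside 0.819% of 5738 of the other V segments. This difference was not tested.
PBS IN mice 3 and 6, no D, Ighj3: tgtgcaagagggtttgcttactgg
UPEC EX mouse 4 and UPEC IN mouse 3, Ighd1-1, Ighj2: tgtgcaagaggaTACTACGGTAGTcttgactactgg
The first measured 24 nt, the shortest length seen for the segment, which 8 IN libraries held, and had 2 and 1 sequences. The second had 1 and 5. Matched on encoded amino acids, 5 CDR3s were in 2 mice each and none in 3.

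In the same library, 49 Ighv3-1 CDR3s were also read with another V name, and in 19 of them the other name had more reads. For 14 of the 23 large clonotypes 1 to 5 sequences bore another name, mostly Ighv3-8, a close relative, and 22 such sequences were counted in all. Whether the names were mixed in amplification or in annotation was not tested.

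The 5 most held 9-base words of Ighv3-1 CDR3s, read in frame, were atggactac, gctatggac, tttgcttac, tttgactac and tatgctatg. In IN tttgcttac was in 30.2% of Ighv3-1 clonotypes and 16.5% of the others, and in 27.3% and 16.4% of joined ones. In EX it was in 10.9% and 12.5%, and in 21.0% and 15.3% of joined ones. The word tatgctatg was in 27.8% of EX Ighv3-1 clonotypes and 13.1% of the others, but in 13.3% and 16.1% once clonotypes were joined.

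Across the 22 libraries the log2 share of Ighv3-1 ran most like that of Ighv3-3 (Pearson r = 0.43), Ighv15-2 (0.38) and Ighv10-1 (0.31) of 17 other segments, and least like that of Ighv12-3 (-0.49). Spearman's rho put Ighv10-1 first (0.41), before Ighv3-3 (0.29) and Ighv15-2 (0.27), and Ighv12-3 last (-0.44). These are descriptions, since shares of 1 library sum to a whole and the libraries share mice.

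Between UPEC and PBS none of the 17 Ighv3-1 features, without joining, passed an adjusted p of 0.05 in either compartment, by exact Mann-Whitney U tests, and none had an unadjusted p below 0.05. With 6 and 5 mice the smallest p these tests allow is 0.0043. The EX minus IN gap of Ighj3 was 29.5 points higher in UPEC than in PBS mice (exact permutation test, p = 0.058, adjusted p = 0.55). With joined clonotypes it was 11.2 points higher (exact permutation test, p = 0.31), and without PBS mouse 6 it was 26.2 points higher (p = 0.13), both chosen after seeing the data.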

How the data were processed

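Per the labels and methods, sorted kidney B cell RNA was reverse transcribed with barcoded primers, amplified with a mix of V primers and sequenced. The authors filtered and merged reads, discarded barcodes whose reads disagreed, kept sequences with more than 1 read and annotated them with IMGT/V-QUEST. The deposited tables hold other values than counts: nucleotide sequences, segment names, positions and, within identifiers, read numbers per isotype. Primer preferences can shift shares of V segments, and errors of amplification can add sequences 1 base apart.

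Here V, D and J were taken at the first name. Shares were over distinct sequences, clonotypes or reads. A feature needed 3 Ighv3-1 clonotypes in a library. V mismatches came from a gapless placement on the GENCODE vM21 germline (GRCm38), with at least 100 aligned bases and at most 15% mismatches, and 111 Ighv3-1 sequences gave no value. Clonotypes of at least 20 sequences were called large. Paired contrasts used exact two-sided Wilcoxon signed-rank tests over mice, and contrasts of treatments exact Mann-Whitney U tests, with Benjamini-Hochberg adjustment over 8 share tests or over the 17 features of a comparison (16 against other V segments). V segments were tested by limma 3.58.1 (R 4.3.3), fitted to log2-transformed shares with a prior of 0.5 sequences scaled to library total and the mouse as a block in EX against IN, at an adjusted p of 0.05. The fit was tested on simulated data. Shares sum to a whole, so a change of 1 segment moves the others. Wilson intervals cover counting error only. Python 3.11.15, pandas 2.3.3 and scipy 1.17.1 were used.

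The segment, the features and the lists were chosen with earlier results of these data known. Genes named are the Ighv3 relatives, Ighv11-2, Ighv12-3 and the 3 segments most like Ighv3-1. Clonotypes named are the 10 largest, the largest of a library and those in several mice. The mutated clonotypes were chosen after their values were seen. Amino acid sequences are not given. Alternatives are described at the close.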

Additional observations from a re-analysis of the deposited data

Results flagged for a closer look

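Of 76 groups of libraries tested for a single value far from the others, 14 held one, and chance flags about 1 in 20 groups, or 3.8 here. The values of 1 library are not independent of each other, and the causes were not tested.

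PBS IN mouse 6 lay apart from the other PBS IN libraries in 6 measures of Ighv3-1. Its share of sequences was 47.8%, its clonotypes held 5.96 sequences on average and its most frequent clonotype made up 78.1% of its Ighv3-1 sequences. Ighj1 was at 4.08%, Ighj3 at 73.5% and the Ighd2 family at 72.9% of its Ighv3-1 clonotypes. With clonotypes 1 nt apart joined these were 10.5%, 42.1% and 33.3%. Its clonotype of 228 sequences uses Ighd2-5 and Ighj3.

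PBS EX mouse 5 lay apart with Ighj1 at 80% of clonotypes, the Ighm field at 7.41% and the Ighd field at 92.6% of unique V-D-J regions, over 27 Ighv3-1 sequences in all. Ighj1 was at 66.7% of its 3 joined clonotypes. In PBS EX mouse 4 the Ighd3 family made up 90.9% of clonotypes and 33.3% of its 3 joined clonotypes. UPEC EX mouse 4 had an Ighv3-1 share of 30.4% of sequences. In UPEC IN mouse 4 the most frequent clonotype held 33.7% of Ighv3-1 sequences. The mean CDR3 of UPEC EX mouse 5 measured 47.3 nt. UPEC IN mouse 5 had 4.11% of its Ighv3-1 regions in the Igha field, which rests on 3 sequences.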

How the results depend on the processing

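Alternatives changed the clonotype definition, the read minimum, the weighting, the filter, the centring and the mice. Of 147 settings of the main comparisons, mice left out not counted, 131 kept direction and side of the threshold and 10 turned direction. With 1 mouse left out, 217 of 243 kept both and 17 turned direction. Joining clonotypes 1 nt apart was chosen after seeing the data. It moved the difference in clonotype share to -10.2 points in PBS EX against IN (-10.0 with at least 3 reads), to 1.55 in EX and 1.11 in IN with UPEC against PBS, and the change of the gap to 0.438 (0.224 by reads). The insert size difference became -0.024 in PBS EX against IN and 0.496 in EX with UPEC against PBS. With each sequence counted these were -0.632 and 1.48, and the EX CDR3 length against other V segments became -0.113 nt. In UPEC mice alone that length difference was -0.0725 nt in EX and -1.64 nt in IN. The number of V segments passing limma in PBS EX against IN went from 6 to 0 with no filter (13 at an unadjusted p below 0.05), to 0 by reads (6 at an unadjusted p below 0.05) and to 3 when centred. The causes were not tested.

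Leaving out 1 mouse moved the CDR3 length difference from -1.41 to 1.13 nt in EX with UPEC against PBS, from -0.503 to 0.607 nt in EX against other V segments and from -0.439 to 1.73 nt in PBS EX against IN. The clonotype share ranged from -6.42 (without PBS EX mouse 5, exact p = 0.032) to -3.01 in EX and from -3.17 to 1.63 in IN with UPEC against PBS. Insert size ranged from -1.11 to 0.817 in EX with UPEC against PBS and from 0.972 to 1.72 (without UPEC EX mouse 2, exact p = 0.049) in EX against other V segments. Segments passing limma ranged from 0 to 5 in PBS EX against IN and from 0 to 1 in EX with UPEC against PBS. With 5 PBS pairs left, sequences per clonotype and Ighj3 in PBS EX against IN cannot reach an exact p below 0.0625. Single features are listed where p was below 0.05, a choice made after seeing the results.

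EX and IN libraries are paired by mouse. UPEC and PBS mice share only numbers, and same-numbered libraries correlated at -0.27 to 0.22 in EX and -0.44 to -0.09 in IN. With a replicate block by number the Ighv3-1 share difference was -6.08 points in EX and -0.85 in IN, and no segment passed limma. Without the block by mouse, 7 segments passed in PBS EX against IN. The block changed no other call. Library depth limits small Ighv3-1 sets such as the 5 clonotypes of PBS EX mouse 5.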
